A study of Mus musculus with 27 samples.

Results

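Metallothioneins are small cysteine-rich proteins that bind zinc and copper, and the zinc transporters are membrane proteins that move zinc into or out of the cytosol. The expression of 10 of these genes was followed in the liver of old mice on different diets, out of 18820 genes with a transcript cluster on the arrays. They were the metallothionein genes Mt1 and Mt2, the zinc-sensing transcription factor Mtf1, the exporters Slc30a1 and Slc30a10, and the importers Slc39a1, Slc39a4, Slc39a5, Slc39a8 and Slc39a14. The genes were chosen by name, with the differences of Mt1 and Mt2 between the diet groups already known. Their differences between the groups are therefore described by value and standard error, without a p-value. All 10 genes had an intensity above 20 on all 27 arrays and passed the filter on low values.

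Livers came from male C57BL/6J mice aged 28 months, with 1 array per mouse. Mice of the C group (n = 8) ate AIN-93W ad libitum from 9 weeks of age. Mice of the CR group (n = 5) received daily portions of AIN-93W-CR with 70% of the energy eaten by the C mice, a calorie restriction of 30%. Mice of the MF group (n = 7) ate AIN-93W-MF ad libitum, a medium-fat diet with 25% of its energy from fat. Mice of the CR-MF group (n = 7) were on the CR diet until 24 months and then on the MF diet for 4 months. The methods state that the restricted diet was enriched in vitamins and minerals so that micronutrient intake matched that of the C mice. Every mouse had been fasted for 4 h, gavaged with carboxymethyl cellulose, the solvent of a compound that none of these mice received, and fasted for a further 6 h. CR portions were given at a fixed time of day. The time since the last meal may therefore have differed between CR and the ad libitum groups, and its part in the differences was not tested. Hepatocyte markers were at a mean log2 intensity of 13.1 to 13.2 in every group. Pancreatic acinar markers, of an organ that expresses metallothioneins and several of these transporters, averaged 3.94 to 4.01, below the log2 floor of 4.32 used as the filter. Of the 4 measured, 1 (Cpa1) passed the filter. In whole liver, fewer cells of a type and less RNA per cell cannot be told apart.

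Free zinc in the cytosol is sensed by MTF1, which binds metal response elements in the promoters of Mt1, Mt2 and Slc30a1 and activates them. Metallothionein genes are also induced by glucocorticoids and by interleukin-6 during the acute-phase response of the liver. The SLC30 proteins (ZnT) carry zinc out of the cytosol, and the SLC39 proteins (ZIP) carry it in. SLC39A14 (ZIP14) is the importer of the liver that is induced by inflammatory signals, and it also carries iron and manganese. SLC30A10 exports manganese.

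Mt1 and Mt2 lie next to each other on mouse chromosome 8 and are read in the same direction. In RefSeq (GRCm38.p6), Mt2 spans chr8:94172618-94173567 and Mt1 chr8:94178883-94180327, with 5315 bases between them. Promoter windows of 300 bases, from 250 before to 50 after an annotated start, were given for 8 of the 10 genes and not for Slc39a4 and Slc39a14. The core of the metal response element was searched in them as TGCGCNC or TGCACNC on both strands, with overlapping matches counted as 1. The Mt2 window held 4 matches and the Mt1 window held 3, while 0.295% of all 32851 such windows held at least 4 and 1.31% held at least 3. Slc30a1 and Slc30a10 held 2 each, a number reached or passed in 6.14% of windows. Slc39a5 and Slc39a8 held 1 in 1 of their 2 windows, where 25.7% of windows held at least 1, and Mtf1 and Slc39a1 held none. A match is a string of letters and no measurement of binding.

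The stretches with these matches are shown for the metallothionein pair because their levels moved together in the data below. Capitals mark the matches, and the sequences run from 5′ to 3′ on the plus strand, which is the coding strand of both genes. The Mt2 stretches are the 250 bases before its annotated start, chr8:94172368-94172617, and the 30 bases from the start, chr8:94172618-94172647. The Mt1 stretches are the 30 bases before the start of its window, chr8:94179059-94179088, and the 30 bases from that start, chr8:94179089-94179118.
Mt2, before the start: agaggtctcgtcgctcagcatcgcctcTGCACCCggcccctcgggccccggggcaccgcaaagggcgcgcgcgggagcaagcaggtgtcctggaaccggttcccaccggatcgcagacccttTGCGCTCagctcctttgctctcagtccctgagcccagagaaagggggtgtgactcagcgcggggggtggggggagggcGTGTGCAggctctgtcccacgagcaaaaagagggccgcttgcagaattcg
Mt2, from the start: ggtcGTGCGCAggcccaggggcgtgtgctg
Mt1, before the start: cccgctgTGCACACtggcgctccagggagc
Mt1, from the start: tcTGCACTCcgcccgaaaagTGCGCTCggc
The Mt2 match nearest before the start and the one after it lie on the minus strand, so that they read there as TGCACAC and TGCGCAC. The first of the Mt1 matches from the start, TGCACTC, and the second, TGCGCTC, are separated by 11 bases. RefSeq places the start of the Mt1 gene record upstream of the start used for its window, so these distances hold for that window only.

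Mt1 was lowest in the CR group. The 5 CR mice had log2 intensities of 8.52, 9.77, 9.91, 10.24 and 11.38. The 8 C mice ranged from 11.04 to 12.11 with a median of 11.59. The CR-MF mice ranged from 10.68 to 12.74 with a median of 11.50, and the MF mice from 11.08 to 12.80 with a median of 11.65. Of the 5 CR mice, 4 lay below all 22 mice of the other groups, and the remaining CR mouse, B4_7, lay within their range. The CR mean was 9.96 ± 1.03 (SD, n = 5), against 11.53 ± 0.39 for the C mice (n = 8), 11.48 ± 0.75 for CR-MF (n = 7) and 11.90 ± 0.65 for MF (n = 7).

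Set against CR, the Mt1 mean was higher by 1.94 (SE 0.38) on the log2 scale in MF, a 3.84-fold difference. The C mean was higher by 1.56 (SE 0.37, 2.96-fold), and the CR-MF mean by 1.52 (SE 0.38, 2.86-fold). These 3 differences share the CR mice. The mice switched from CR to MF at old age had a Mt1 mean within 0.05 of that of the C mice on the log2 scale. CR-MF and MF differed by -0.42 (SE 0.35), about the size of the standard error.

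Mt2 had the same order of groups at a higher array intensity. The 5 CR mice stood at 9.64, 11.43, 11.74, 12.43 and 12.88. The C mice ranged from 12.74 to 13.36 (median 12.96), the CR-MF mice from 12.04 to 13.44 (median 12.90) and the MF mice from 12.80 to 13.44 (median 13.12). Of the CR mice, 3 were below all 22 mice of the other groups, and the 2 highest, B4_13 and B4_7, overlapped them. The CR mean of 11.62 ± 1.24 (SD, n = 5) was lower than that of MF by 1.50 (SE 0.33, 2.82-fold), than that of C by 1.37 (SE 0.32, 2.58-fold), and than that of CR-MF by 1.13 (SE 0.33, 2.19-fold).

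**Figure D1:**
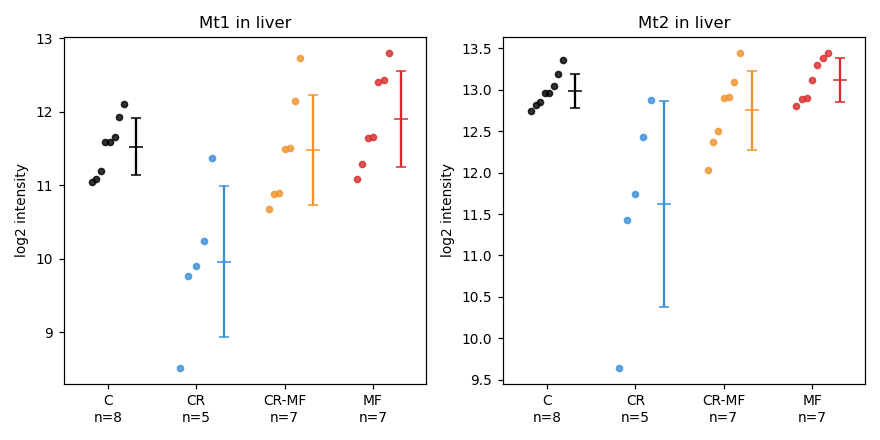
Log2 intensity of Mt1 and Mt2 in each of the 27 livers by diet group, points being mice sorted by value, with the group mean and SD beside them. The CR mice spread over 2.86 log2 units for Mt1 and 3.23 for Mt2, and the CR mouse B4_7 reaches the level of the other groups.

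The spread among the CR mice was itself wide for both metallothioneins. Their SD was 1.03 for Mt1 against 0.39 in C, and 1.24 for Mt2 against 0.20 in C. The standard errors given above come from 1 spread shared by all groups. For differences of Mt1 and Mt2 from CR they therefore understate the uncertainty. The same 2 mice, B4_5 and B4_7, formed the low and the high end for both genes. Leaving out 1 mouse at a time kept the MF minus CR difference between 1.58 and 2.29 for Mt1 and between 1.00 and 1.81 for Mt2. The Mt2 difference of 1.00, and likewise the smallest values of Mt2 for C minus CR (0.87) and CR-MF minus CR (0.63), came without the mouse B4_5. Mt1 and Mt2 are closely similar in coding sequence, and the share of signal that their probes take from each other was not tested.

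Array names carried 3 codes (G150, G151 and G152) and 3 letters (F, G and H), which were read here as plate and well row. No label states this reading, and they were taken as possible technical batches. On plate G150, with 5 MF and 3 CR mice, the MF minus CR difference was 2.23 for Mt1 and 1.79 for Mt2. On plates G151 and G152, with 1 mouse of each group, it was 0.84 and 1.74 for Mt1, and 0.46 and 1.47 for Mt2. For CR-MF minus CR, the plates gave 1.62, 0.44 and 2.24 for Mt1 and 1.41, -0.39 and 1.66 for Mt2, so the sign of Mt2 turned on plate G151. Within well row G, with all 7 MF and 2 CR mice, the MF minus CR differences were 1.83 and 1.19, but the CR mouse B4_7 was in row F. Within row F, with all 8 C and 3 CR mice, the C minus CR differences were 1.64 for Mt1 and 1.57 for Mt2, and the groups overlapped. All CR-MF mice were alone in row H, so row and diet switch cannot be told apart.

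Among all 13993 genes tested, 5.42% had an adjusted p under 0.05 between MF and CR in limma with Benjamini-Hochberg adjustment. Of the 10 genes, 3 did so, Mt1, Mt2 and Slc39a4, all higher in MF, a direction called in 2.8% of all genes. For C minus CR the background was 1.57% (0.808% higher in C), and Mt1 and Mt2 passed, both higher in C. For CR-MF minus CR the background was 0.6% and none of the 10 passed by limma or by the intensity-based moderated statistic, while Mt1, Mt2 and Slc30a1 had an unadjusted p under 0.05, as did 12.3% of all genes. For CR-MF minus MF the background was 1.44% (0.893% lower in CR-MF), and Slc39a4 passed, lower in CR-MF. For CR-MF minus C (background 0.3%) and MF minus C (background 0%) none passed by either statistic, with 3 genes and 1 gene at an unadjusted p under 0.05, beside 11.4% and 3.97% of all genes. Nothing is read from these counts, since the genes were chosen with some of the differences known. The median of the 10 log2 differences was 0.331 for MF minus CR, 0.197 for CR-MF minus CR, -0.25 for CR-MF minus MF and 0.187 for C minus CR, beside medians over all genes between -0.016 and -0.001.

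**Figure D2:**
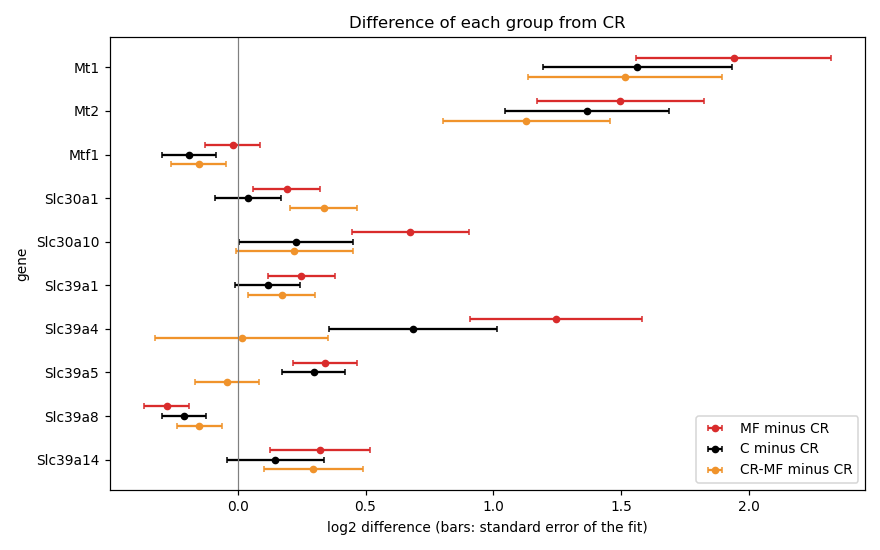
Log2 difference of MF, C and CR-MF from CR for each of the 10 genes, with the standard error of the fit over 27 arrays as bars; the 3 differences of a gene share the CR mice. Mt1 and Mt2 stand above 1 in all 3 comparisons, while Slc39a4 is at 1.24 for MF and 0.02 for CR-MF.

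Slc39a4 encodes ZIP4, the importer that takes up dietary zinc in the intestine and that is mutated in the human zinc deficiency acrodermatitis enteropathica. Its group means in these livers had the order of the metallothioneins, but with CR-MF next to CR. The CR mice stood at 6.28, 6.43, 6.49, 6.76 and 6.85, and the MF mice ranged from 7.23 to 8.38 with a median of 7.81. Every MF mouse lay above every CR mouse, and such a separation in either direction was seen in 3.79% of the genes tested. The C mice (6.23 to 8.52, median 7.37) covered both ranges. The CR-MF mice (5.49 to 7.69, median 6.38) overlapped both, and 4 of the 7 MF mice lay above all of them.

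The Slc39a4 mean was 7.81 ± 0.41 in MF (SD, n = 7), 7.25 ± 0.74 in C (n = 8), 6.58 ± 0.78 in CR-MF (n = 7) and 6.56 ± 0.24 in CR (n = 5). MF exceeded CR by 1.24 (SE 0.34, 2.37-fold). CR-MF and CR differed by 0.02 (SE 0.34), and CR-MF was below MF by 1.23 (SE 0.31, 2.34-fold). After 4 months on the MF diet the mean of Slc39a4 was thus near that of lifelong CR, while the means of Mt1 and Mt2 were near those of C and MF. MF was above CR on all 3 plates, by 1.06, 1.67 and 1.61, and CR-MF was below MF on all 3, with differences of -1.12, -1.87 and -1.13. Slc39a4 left the adjusted threshold for MF minus CR when B4_1, B4_13, B4_3, C4_7 or C4_5 was omitted, 5 of the 12 mice in turn. For CR-MF minus MF it did so for 9 of 14 mice. Those 9 were C4_7, C4_9, C4_13, C4_15, C4_5, BC4_1, BC4_5, BC4_9 and BC4_3, and the difference stayed between -1.41 and -1.05.

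Epcam, an epithelial marker that hepatocytes lack and bile duct cells carry, was also lowest in CR-MF and CR and highest in MF. It fell by 0.78 (SE 0.18) in CR-MF against MF (limma adjusted p = 0.0216), with no overlap between the groups (0.65% of all genes). It was the only one of 4 cholangiocyte markers to pass, beside 1.44% of all genes. The call was lost without BC4_9, BC4_13 or C4_15, each omitted in turn, on plate G150 alone and with only the 2 groups in the fit (highest limma adjusted p = 0.0846). At an unadjusted p under 0.05 all 4 markers differed, beside 14.8% of all genes, with Krt19 (-0.36) and Krt7 (-0.38) below 0 as well and Sox9 (0.35) above 0. The mean log2 level of the 4 markers ranged from 5.48 to 6.30 over the MF mice, from 5.38 to 5.77 over the CR-MF mice and from 5.62 to 5.78 over the CR mice. All 4 passed the low-value filter at log2 4.32, but Epcam lay little above that floor outside MF. It ranged from 4.68 to 5.12 in CR-MF, from 4.82 to 5.20 in CR and from 5.16 to 6.42 in MF. Within groups, deviations of Slc39a4 correlated with those of the 4 markers at r of 0.11 to 0.37 across 27 arrays, with a median of 0.23 against 0.00 over all genes. The part of bile duct cells in the Slc39a4 level was not tested.

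The other importers differed less between groups. Slc39a14 was the importer with the highest array intensity, although intensities of different genes are not comparable in level. Its means were 10.90 ± 0.26 in CR, 11.05 ± 0.17 in C, 11.20 ± 0.47 in CR-MF and 11.22 ± 0.42 in MF. The MF minus CR difference of 0.32 (SE 0.19) was within the spread between mice. The CR mouse B4_5, with the lowest Mt1 and Mt2, also had the lowest Slc39a14 of its group (10.44, the others 10.98 to 11.04). The CR-MF mouse BC4_15, with the highest Mt1 and Mt2 of its group, had the highest Slc39a14 of all 27 mice (12.23).

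Slc39a8, which encodes the ZIP8 importer of zinc, manganese and iron, ran the other way. The CR mice had 8.04, 8.06, 8.07, 8.13 and 8.27, and the MF mice 7.63 to 7.91 with a median of 7.90. The groups did not overlap, as for 3.79% of the genes tested, and Slc39a8 did not pass the adjusted threshold for MF minus CR. The MF mean was lower by a log2 difference of -0.28 (SE 0.09, 1.21-fold), with the CR SD at 0.09 and the MF SD at 0.11. The C mice (7.64 to 8.11) and CR-MF mice (7.77 to 8.34) overlapped both groups. On the 3 plates the MF minus CR difference was -0.34, -0.15 and -0.16.

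Slc39a5, for the ZIP5 importer of the basolateral membrane of enterocytes and pancreatic acinar cells, was at low intensity. Its means were 5.30 ± 0.26 in CR and 5.26 ± 0.24 in CR-MF, against 5.60 ± 0.16 in C and 5.64 ± 0.22 in MF. CR-MF was below MF by a log2 difference of -0.38 (SE 0.11) and CR-MF minus CR was -0.04 (SE 0.13). The means of CR and CR-MF thus lay below those of C and MF as for Slc39a4, by smaller differences. The groups overlapped in every comparison, and Slc39a5 passed the adjusted threshold in none. The CR mouse B4_5 at 5.72 stood above the other CR mice (5.02 to 5.32). Slc39a1, for the plasma membrane importer ZIP1, had means between 9.31 and 9.56 and an MF minus CR difference of 0.25 (SE 0.13). A second transcript cluster of Slc39a1 averaged 8.96 and correlated with the first at r = 0.73 over the 27 arrays.

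**Figure D3:**
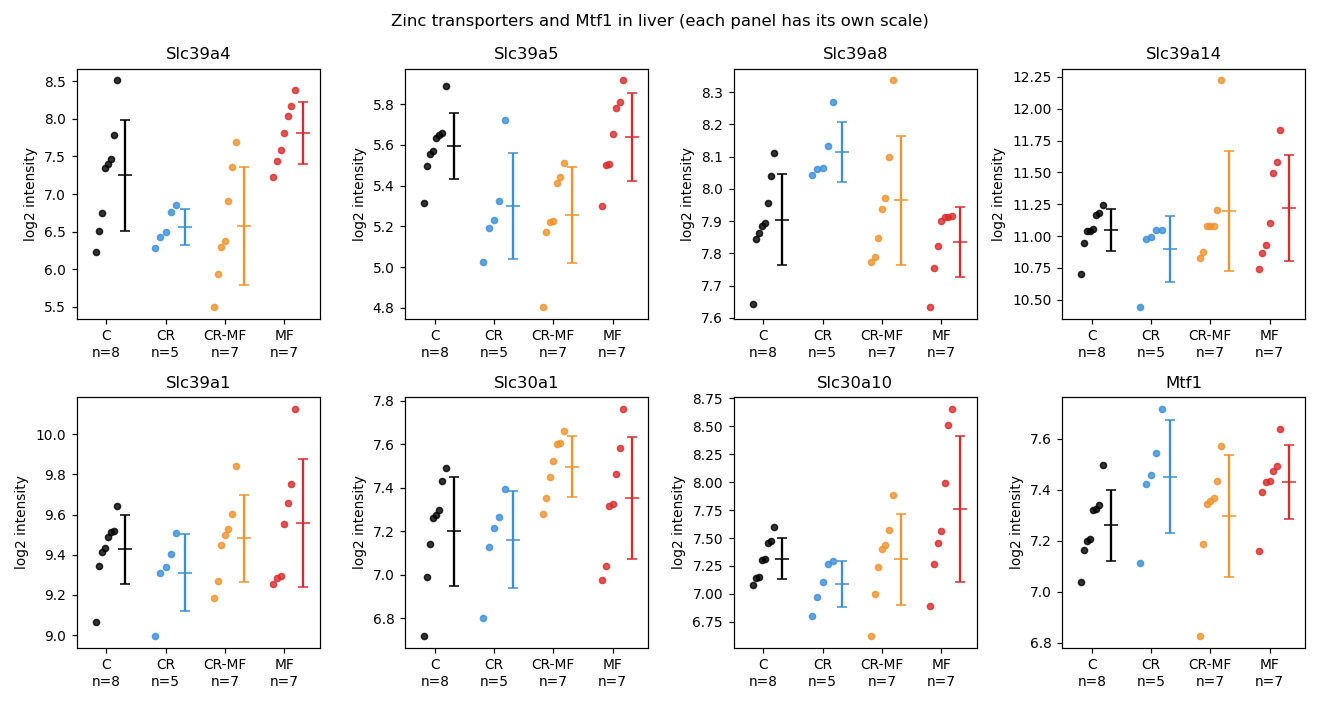
Log2 intensity of the 5 importers, 2 exporters and Mtf1 in each mouse by diet group, with group mean and SD; each panel has its own scale. The MF mice lie above all CR mice for Slc39a4 and below all CR mice for Slc39a8, and the other panels overlap for these groups.

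Of the exporters, Slc30a10 varied most among the MF mice. They ranged from 6.89 to 8.66 with a median of 7.56, and the CR mice had 6.80, 6.97, 7.10, 7.27 and 7.29. The MF mean of 7.76 ± 0.65 exceeded the CR mean of 7.09 ± 0.20 by 0.67 (SE 0.23, 1.60-fold), while the ranges overlapped. The difference was 1.02 on plate G150, 0.17 on G151 and -0.40 on G152, so the sign did not hold over the plates. Slc30a1, for the plasma membrane exporter ZnT1 and a target of MTF1, had means of 7.16 ± 0.22 in CR, 7.20 ± 0.25 in C, 7.35 ± 0.28 in MF and 7.50 ± 0.14 in CR-MF. The Slc30a1 difference between MF and CR was 0.19 (SE 0.13), against 1.94 for Mt1. Mtf1 itself stayed between 7.26 and 7.45 in mean, with CR highest and an MF minus CR difference of -0.02 (SE 0.11).

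Variation among mice on the same diet played no part in the choice of the genes, and it was compared between Mt1 and the other 9 genes as deviations from the group means over 27 arrays. Mt1 and Mt2 moved together, with Pearson r = 0.865 (two-sided permutation within groups, p = 1e-05, the smallest that 100000 permutations can give, adjusted over 9 relations 4.5e-05) and Spearman rho = 0.889 (adjusted permutation p = 9e-05). Without the mice farthest from the median of Mt1, B4_5 and B4_1, r was 0.876 (n = 25), and on plate G150 alone it was 0.897 (n = 19). Within groups, r was 0.956 in CR-MF (exact permutation p adjusted over 12 relations 0.00952, n = 7), 0.949 in MF (exact adjusted p = 0.0214, n = 7) and 0.784 in C (exact adjusted p = 0.0434, n = 8). Without the 2 mice farthest from the median in each group, r was 0.955, 0.887 and 0.561. Spearman rho was 0.964 in CR-MF and in MF (exact adjusted p = 0.0167 in each, n = 7) and 0.738 in C (exact adjusted p = 0.0960, n = 8). The 5 CR mice were too few for a correlation of their own. Correlations inside single groups were run only for Mt2, Slc39a14, Slc39a1 and Slc30a10, the genes with the highest r over the 27 arrays. They rest on the same deviations and are no independent support, and their adjustment covers only these 12 relations.

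Slc39a14 was the transporter that followed Mt1 most closely within groups. Over 27 arrays r was 0.771 (permutation p = 1e-05, adjusted 4.5e-05) and rho 0.769 (adjusted permutation p = 9e-05). It was 0.763 without B4_5 and B4_1 and 0.799 on plate G150. Without B4_5 and BC4_15, the mice that stood apart in Slc39a14 itself, r was 0.667 (permutation p = 0.00047, n = 25), an alternative chosen after seeing the data. Within groups r was 0.921 in MF and 0.847 in CR-MF (exact permutation adjusted p = 0.0381 in both, n = 7) and 0.574 in C (exact adjusted p = 0.199, n = 8). Without the 2 mice farthest from the median, r was 0.792 in MF, 0.976 in CR-MF and 0.527 in C. The rank correlation was 0.857 in MF (exact adjusted p = 0.0714, n = 7), 0.679 in CR-MF (0.164) and 0.524 in C (0.262), none of them past 0.05.

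Slc39a1 had r = 0.603 with Mt1 (permutation p = 0.00173, adjusted 0.00519) and rho = 0.661 (adjusted permutation p = 0.00234), with r of 0.537 without the 2 mice and 0.563 on plate G150. None of its within-group correlations passed. Slc30a10 had r = 0.418 (adjusted permutation p = 0.0826) and rho = 0.410 (adjusted permutation p = 0.130), with r of 0.854 within MF (exact permutation adjusted p = 0.0433, n = 7). The rho within MF was 0.857 (exact permutation adjusted p = 0.0714). In C, r of Slc30a10 was -0.132 (exact permutation adjusted p = 0.820, n = 8), and in CR-MF it was 0.115 (exact permutation adjusted p = 0.832, n = 7) and -0.626 without 2 mice. For Mtf1, Slc30a1, Slc39a4, Slc39a5 and Slc39a8, r lay between -0.29 and 0.21 with adjusted permutation p from 0.389 to 0.952. Slc30a1 and Mtf1, at r of 0.09 and -0.01, thus did not show the within-group relation measured for Mt2.

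**Figure D4:**
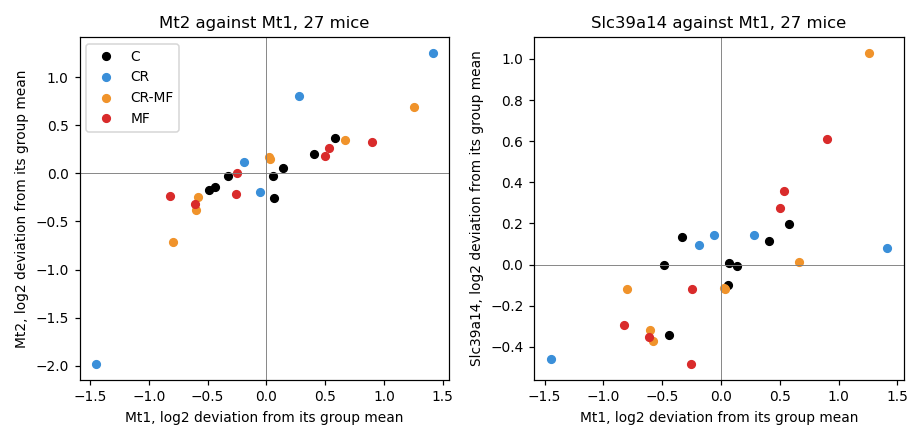
Deviation of Mt2 (left) and Slc39a14 (right) from the group mean plotted against that of Mt1 in 27 mice, on the log2 scale and coloured by diet. Mt2 follows Mt1 at r = 0.865 and Slc39a14 at r = 0.771, and the CR mouse B4_5 lies at the lower left of both panels.

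The genes whose levels were most like Mt1 over all 27 arrays, among 13522 genes compared, were Lrg1 (r = 0.915), Serpina3n (0.895), Pid1 (0.885), Lcn2 (0.873) and Il13ra1 (0.86). Lrg1, Serpina3n and Lcn2 encode secreted proteins that the liver makes in the acute-phase response, and Il13ra1 encodes a cytokine receptor chain. Over deviations from the group means, r was 0.873, 0.873, 0.808, 0.818 and 0.841 in the same order. For Mt2 the list was Pid1 (0.837), Lrg1 (0.825), Phc1 (0.771), Serpina3n (0.767) and Ankrd2 (0.74). These values are descriptions over points that share the arrays and their normalization.

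A list of acute-phase genes was set beside the metallothioneins. It includes Lcn2, named above for its likeness to Mt1, so the list is not independent of that likeness. In MF against CR, 3 of 15 tested passed, all higher in MF, beside 2.8% of all genes called higher. They were Saa2 (2.81, limma adjusted p = 0.0287), Orm3 (2.45, adjusted p = 0.0152) and Lcn2 (2.07, adjusted p = 0.0209). All 15 had a difference above 0 with a median of 0.319, beside -0.007 over all genes. The mean log2 level of the 15 genes ranged from 10.14 to 11.17 over the CR mice, from 10.75 to 11.64 over the C mice, from 10.23 to 11.92 over CR-MF and from 10.61 to 11.94 over MF. Within groups their deviations correlated with those of Mt1 at r of 0.57 (Cebpd) to 0.89 (Fga), median 0.79, with those of Slc39a14 at a median of 0.66, with those of Mt2 at 0.55 and with those of Slc39a4 at 0.18. The medians over all 13993 genes were -0.03 for each of Mt1, Mt2 and Slc39a14. The part of the acute-phase state in the metallothionein levels was not tested. Saa2 no longer passed without B4_1, B4_5, B4_3, C4_1, C4_7 or C4_9, each omitted in turn, and Lcn2 without B4_1, B4_13 or B4_3. None of the 3 passed with animal number as a block, on plate G150 alone or with well row as a block (highest limma adjusted p of 0.103 for Orm3, 0.129 for Lcn2 and 0.210 for Saa2), nor did Saa2 with only the 2 groups in the fit.

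Glucocorticoid-induced genes that passed between MF and CR were lower in MF. Of 9 tested, 2 passed, beside 5.42% of all genes. Tat, which degrades tyrosine, fell by 0.46 (limma adjusted p = 0.0150) and Pck1, of gluconeogenesis, by 0.40 (adjusted p = 0.0182). Of the 9, 8 had a difference below 0, with a median of -0.226 beside -0.007 over all genes. Within groups, by contrast, the deviations of the 9 genes correlated with those of Mt1 at r of 0.01 (Angptl4) to 0.68 (Dusp1), median 0.48. Tat no longer passed without B4_3, and Pck1 without B4_1 or B4_3. Among 5 other genes whose expression depends on MTF1 in mouse liver or cells, only Csrp1, a LIM domain protein, passed. It rose in MF by 0.52 (limma adjusted p = 0.0444), and 3 of the 5 differences were above 0, the lowest at -0.096. For CR-MF minus CR, 2 of the 5 were above 0, with a median of -0.151, and Csrp1 differed by 0.04 (SE 0.15). The MF call of Csrp1 was lost for 9 of the 12 mice omitted in turn (B4_1, B4_7, B4_13, B4_3, C4_1, C4_7, C4_11, C4_15 and C4_5). The difference of Csrp1 stayed between 0.45 and 0.58 for all 12. Tat, Pck1 and Csrp1 did not pass on plate G150 alone or with well row as a block (highest limma adjusted p of 0.157, 0.144 and 0.206), nor did Pck1 and Csrp1 with animal number as a block. Csrp1 also did not pass without the filter, with plate as a block or with only the 2 groups in the fit. None of 9 copper-handling genes and none of 5 NRF2 target genes passed by limma or by the intensity-based statistic. Of them, 3 and 0 had an unadjusted p under 0.05, as did 3315 of all 13993 genes tested.

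Markers of other cell types were set beside these values. The lists comprised 5 Kupffer cell, 4 sinusoidal endothelial, 4 stellate and 5 T and B cell markers. None of them passed between MF and CR by limma or by the intensity-based statistic. In the same order, 1, 2, 2 and 1 had an unadjusted p under 0.05, as did 3315 of all 13993 genes tested. The mean log2 level of the Kupffer cell markers ranged from 8.88 to 9.35 over the CR mice, from 8.97 to 10.77 over C, from 8.86 to 10.59 over CR-MF and from 8.94 to 10.15 over MF. Their deviations correlated with those of Mt1 at a median r of 0.35 over 27 arrays. Those of Cpa1, the only pancreatic acinar marker past the filter, correlated with Mt1 at r = 0.39 and with Mt2 at r = 0.52. Of 2 hepatocyte markers past the filter, Cps1, the first enzyme of the urea cycle, fell by 0.29 (SE 0.08) in MF against CR (limma adjusted p = 0.0287). It was the only 1 of the 2 to pass, where 5.42% of all genes did. Cps1 did not pass for 6 of the 12 mice omitted in turn (B4_7, B4_13, B4_3, C4_7, C4_11 and C4_5). Nor did it pass on plate G150 alone, with well row or animal number as a block, or with only the 2 groups in the fit. The part of any other cell type in the metallothionein levels was not tested.

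The remaining genes of the same families, which were not among the 10, comprised 8 further Slc30a genes, 9 Slc39a genes and the metallothioneins Mt3 and Mt4. Of these 19 genes, Slc30a8, Slc39a12 and Mt4 stayed under the filter, and 16 were tested. In MF against CR, 2 of the 16 passed, beside 5.42% of all genes tested. Both were lower in MF, and the median difference was -0.043. The same 2 genes passed in C against CR, both lower in C, beside 1.57% of all genes. None passed in CR-MF against CR, where 5 had an unadjusted p under 0.05, as did 12.3% of all genes. None passed in CR-MF against MF, CR-MF against C or MF against C. There 1 had an unadjusted p under 0.05 in each, beside 14.8%, 11.4% and 3.97% of all genes. The intensity-based statistic gave no call in these 4 comparisons either.

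Slc30a3, which encodes the exporter ZnT3 known for loading zinc into synaptic vesicles, was at low intensity and higher in CR than in C and MF. Its group means ran from 5.16 to 5.82, beside array medians over all clusters of 5.38 to 5.48. The CR mice had 5.55, 5.76, 5.78, 5.80 and 6.19. The C mice ranged from 4.91 to 5.55, the CR-MF mice from 5.15 to 5.55 and the MF mice from 4.87 to 5.48. Of the 5 CR mice, 4 lay above all 22 other mice. The groups CR and MF did not overlap, which held for 3.79% of all genes. Slc30a3 fell by 0.66 (SE 0.12) in MF against CR (limma adjusted p = 0.00315) and by 0.58 (SE 0.12) in C against CR (adjusted p = 0.0157). The CR-MF minus CR difference was -0.44 (SE 0.12, adjusted p = 0.0874) and did not pass. On the 3 plates MF minus CR was -0.62, -0.79 and -0.76, and within well row G it was -0.63.

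Slc39a2, for the importer ZIP2, had the same order, also at low intensity (group means from 5.70 to 6.39). The CR mice stood at 6.03, 6.30, 6.42, 6.42 and 6.80, the MF mice between 5.36 and 6.00, the C mice between 5.49 and 6.01 and the CR-MF mice between 5.03 and 6.12. CR overlapped neither MF nor C. Of all genes, 3.79% had no overlap between MF and CR, and 2.02% had none between C and CR. Slc39a2 fell by 0.69 (SE 0.16) in MF against CR (limma adjusted p = 0.0143) and by 0.68 (SE 0.16) in C against CR (adjusted p = 0.0276). CR-MF minus CR was -0.54 (SE 0.16, adjusted p = 0.119). On the 3 plates MF minus CR was -0.54, -0.78 and -1.18. The MF call was lost without B4_3 (adjusted p = 0.0559), and the C call for 6 of 13 mice omitted in turn (A4_3, A4_17, B4_1, B4_7, B4_13 and B4_3). For Slc30a3, the MF call held for all 12 mice omitted in turn, and the C call was lost without B4_1. On plate G150 alone neither gene passed in MF against CR (limma adjusted p = 0.0909 for Slc30a3 and 0.199 for Slc39a2), and with well row as a block Slc30a3 did not (0.0873).

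**Figure D5:**
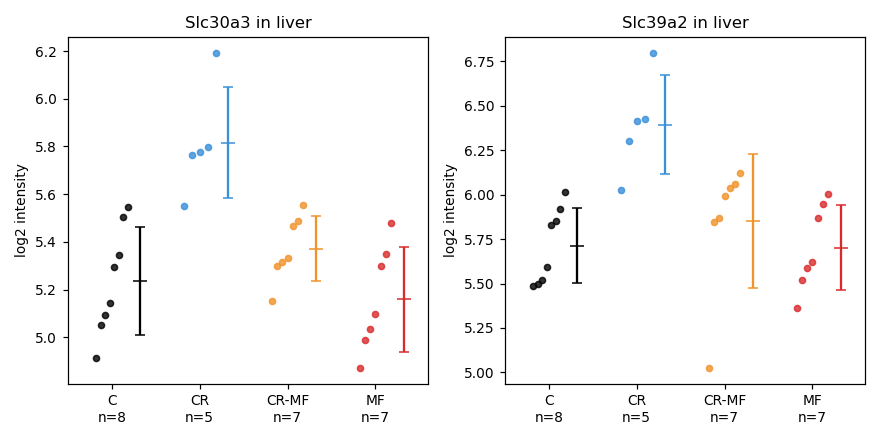
Log2 intensity of Slc30a3 and Slc39a2 in each mouse by diet group, with group mean and SD beside the points. The CR mice lie above all MF mice for both genes, opposite in direction to Mt1 and Mt2.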

How the data were processed

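Liver RNA of 27 mice was hybridised to Affymetrix Gene 1.1 ST arrays for mouse. The deposited log2 intensities per transcript cluster were background-corrected, normalized and summarised by the authors with Robust Multiarray Average (RMA, version not given in the sources used here). The number of arrays limits the precision, and the array medians (5.38 to 5.48) and correlations between arrays (0.975 to 0.991) showed none apart.

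Of 35556 clusters, 21218 had 1 gene symbol, and the cluster with the highest mean stood for a gene. The 13993 genes tested had an intensity above 20 (log2 4.32) in no fewer than 5 livers, and their interquartile range exceeded 0.1. All arrays entered 1 fit of 4 group means in limma 3.58.1 (R 4.3.3; lmFit, eBayes with intensity trend) with Benjamini-Hochberg adjustment over all genes tested. The design without blocks followed the methods, and the intensity-based moderated statistic was an alternative. The fit was tested on simulated data. Correlations used permutation tests (scipy 1.17.1). Genes named outside the 10 were the family genes that passed in any comparison, up to 3 that passed per list, and the 5 most like Mt1 and Mt2. Fold changes are 2 to the power of the log2 difference.

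The 10 genes and all lists were chosen with earlier results of these data known. Alternatives comprised other filters, moderation, normalization and scaling, array weights, plate, well row and animal number as blocks, plate G150 alone, the 2 groups compared alone, the mean of all clusters, and leaving out each mouse. Sequences are from RefSeq, GRCm38.p6, in which 18790 of 18820 genes were matched by gene ID.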

Additional observations from a re-analysis of the deposited data

Results flagged for a closer look

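Within the groups, 1 mouse stood apart from the others of its group in 2 of 40 combinations of gene and group, which is about the 1 in 20 that chance gives. In CR, the mouse B4_5 had a Slc39a14 log2 intensity of 10.44, and the nearest of the other 4 was at 10.98. In CR-MF, the mouse BC4_15 had a Slc39a14 log2 intensity of 12.23, and the nearest of the other 6 was at 11.21.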

How the results depend on the processing

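Direction held for Mt1 and Mt2 against CR under every alternative run: the MF minus CR difference lay between 1.58 and 2.29 (Mt1) and between 1.00 and 1.81 (Mt2), and the Mt1 and Mt2 correlation between 0.825 and 0.897. Leaving out 1 mouse at a time, the number of the 10 genes that passed ranged from 2 to 4 for MF minus CR (3 with all mice), 0 to 2 for CR-MF minus CR (0; Mt1 and Mt2 without B4_7, Mt1 without BC4_5 or BC4_3), 0 to 1 for CR-MF minus MF (1) and 0 to 2 for C minus CR (2, fewer without A4_3, A4_17, B4_1, B4_5, B4_13 or B4_3). Of the other family genes, 1 to 2 passed for MF minus CR (2) and 0 to 2 for C minus CR (2).

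Counts of the 10 genes for MF minus CR were 0 on plate G150 alone and 0 with well row as a block. Mt2 also did not pass for MF minus CR with only the 2 groups in the fit. For CR-MF minus CR the stricter filter gave 1, Mt1. For CR-MF minus MF, array weights gave 2, and plate as a block, plate G150 alone and the 2 groups alone gave 0 each. For C minus CR, plate G150 alone and well row gave 0 each and the 2 groups alone 1. Counts of the other family genes for MF minus CR were 0 with the stricter filter, which leaves both out, 0 on plate G150 and 1 with well row. They were 1 with array weights for CR-MF minus CR, and 0 each for C minus CR with the stricter filter, plate G150 and well row. Plate G150 alone and well row rest on fewer mice per comparison, and elsewhere the cause was not tested. The difference of Slc30a3 in MF stayed between -0.68 and -0.62 and that of Slc39a2 between -0.85 and -0.54 under the alternatives other than leaving out 1 mouse.

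With animal number as a replicate block, C minus CR gave 0 of the 10 genes and 1 of the other family genes, Slc30a3, while the other counts stayed within 1.5 times. Correlations of same-numbered deviations ran from -0.255 to 0.357. They were not compared with those of mice with different numbers, so whether animal number pairs the mice was not tested. The sign of Mt2 for MF minus C varied from -0.38 to 0.21.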
